A study of Mus musculus with 111 samples.

Results

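The collagen genes were taken as all genes whose symbol in the platform annotation begins with Col followed by a digit, with 1 probe set per gene, the brightest of those that list a single gene. They numbered 42 of the 18194 genes that have such a probe set. Of these, 39 were among the 16029 genes bright enough to be tested, and Col10a1, Col9a2 and Col9a3 were not. By family they comprised 11 fibrillar collagens, 6 chains of basement membrane type IV, 2 multiplexins, 3 network-forming collagens, 9 fibril-associated collagens, 5 chains of the beaded filament type VI, the anchoring fibril collagen Col7a1, 4 transmembrane collagens and Col26a1. Membership went by name, and signal decided only which probe set stood for a gene. All 42 platform symbols were current gene symbols.

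Collagens are secreted proteins made of 3 polypeptide chains wound into a triple helix. Types I, III and V assemble into the banded fibrils of tendon and of the connective tissue around muscle fibres, and fibril-associated collagens such as types XII and XIV sit on the surface of these fibrils. Type IV forms the sheet of the basement membrane that wraps each muscle fibre, the multiplexins XV and XVIII lie at its outer face, and type VI links it to the surrounding matrix. Fibroblasts and tendon cells are the main producers of fibrillar collagen in muscle.

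The muscles were gastrocnemius, the calf muscle that pulls on the Achilles tendon, from male C57BL/6 mice, 8 weeks old according to the design text. Each of 111 arrays held the RNA of 1 muscle, from 70 mice. In the casting cohort the right hindlimb was immobilised in a cast, giving 10, 7 and 9 cast legs and 9, 8 and 9 left control legs at days 2, 7 and 14. In the tenotomy cohort an Achilles tendon was cut under ether and ketamine-xylazine, and the animals then moved freely. It gave 5, 7 and 5 left legs labelled tenotomy and 5, 7 and 5 right legs labelled control at days 2, 7 and 14. Sham mice, whose right tendon was exposed and handled but not cut, gave 3, 7 and 8 right muscles at these days, and 7 right muscles came from naive mice with no manipulation. Cohort and treatment cannot be told apart in any comparison across cohorts.

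Which leg of the tenotomy mice was operated on is given in opposite ways. Each sample's label assigns tenotomy to left legs and control to right legs, but in the series' description the cut tendon is the right one. The labels were kept, and differences are left minus right. Under the other reading every sign of that difference turns. More collagens differed from sham in right legs than in left legs, as counted below, and the same held for all tested genes. Of all genes 35%, 41.2% and 35.9% differed in right legs and 9.99%, 19.1% and 20.7% in left legs at days 2, 7 and 14. Which leg was operated on was not tested.

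Genomic context is shown for 5 collagens, 3 of them fibrillar, 1 network-forming and 1 of type VI. All 5 were lower in left legs than in right legs of the tenotomy mice at days 2, 7 and 14, by the test described below. The sequences are the bases before the annotated start of the gene, 5′ to 3′ on the gene's strand, from RefSeq (GRCm38.p6). Capitals mark matches to one of the motifs searched, and overlapping matches are joined. The first motif was the core of the TATA box with the letters TATAA, whose reverse complement on the opposite strand of the gene is TTATA. Another motif was the box bound by the factor NF-Y with the letters CCAAT, whose reverse complement on the opposite strand of the gene is ATTGG. The last motif was the GC box bound by the factor Sp1 with the letters GGGCGG, whose reverse complement on the opposite strand of the gene is CCGCCC. A match is a description of letters only.
Col1a2, chr6:4505368-4505617, plus strand: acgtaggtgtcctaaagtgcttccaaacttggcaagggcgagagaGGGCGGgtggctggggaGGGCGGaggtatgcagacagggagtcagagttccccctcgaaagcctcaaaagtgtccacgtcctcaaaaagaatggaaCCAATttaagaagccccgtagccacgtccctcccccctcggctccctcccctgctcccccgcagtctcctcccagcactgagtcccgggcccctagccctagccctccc
Col3a1, chr1:45311288-45311537, plus strand: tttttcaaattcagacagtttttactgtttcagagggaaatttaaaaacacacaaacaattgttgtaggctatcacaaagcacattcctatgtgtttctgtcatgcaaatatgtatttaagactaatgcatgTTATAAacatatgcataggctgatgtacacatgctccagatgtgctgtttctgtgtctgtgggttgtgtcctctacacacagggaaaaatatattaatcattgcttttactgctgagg
Col5a1, chr2:27886175-27886380, plus strand: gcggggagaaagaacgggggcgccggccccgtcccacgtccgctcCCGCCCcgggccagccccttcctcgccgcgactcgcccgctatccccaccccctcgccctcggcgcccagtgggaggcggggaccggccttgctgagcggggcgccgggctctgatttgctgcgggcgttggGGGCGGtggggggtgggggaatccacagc
Col6a3, chr1:90844002-90844221, minus strand: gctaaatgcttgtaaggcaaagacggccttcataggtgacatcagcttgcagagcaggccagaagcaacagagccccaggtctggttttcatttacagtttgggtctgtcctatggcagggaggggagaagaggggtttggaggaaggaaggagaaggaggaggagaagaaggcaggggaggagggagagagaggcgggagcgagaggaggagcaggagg
Col8a1, chr16:57754738-57754987, minus strand: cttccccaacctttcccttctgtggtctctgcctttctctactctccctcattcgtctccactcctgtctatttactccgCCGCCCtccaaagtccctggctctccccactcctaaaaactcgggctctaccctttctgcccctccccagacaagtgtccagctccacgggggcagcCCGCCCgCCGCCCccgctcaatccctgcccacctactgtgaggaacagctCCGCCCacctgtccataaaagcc
The 5 windows differ in composition, with a G or C share of 35.2% for Col3a1 and 77.7% for Col5a1. Col6a3 had no match to any of the motifs in its window. RefSeq gave an upstream window of 250 bases for 33 of the 42 collagens, 36 windows in all. Among these windows 58.3% held GGGCGG or its reverse complement, against 32.7% of 32851 windows of all genes. The collagen windows also had more G and C, with a median of 59% against 52.4% in all windows. The part of this in the motif share was not tested. CCAAT or its reverse complement was in 36.1% of collagen windows and 33.8% of all windows, and TATAA or its reverse complement in 19.4% and 22.8%. Some collagens are neighbours in the genome. Col3a1 (chr1:45311538-45349706) and Col5a2 (chr1:45374331-45503282) are 24624 bases apart, and the spans of Col4a1 (chr8:11198423-11312889) and Col4a2 (chr8:11312805-11449287) overlap at their starts.

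Values are array signals in the scale of the deposited data, in which the trimmed mean of each array was near 100. A probe set's signal says nothing about its level relative to another gene's probe set, so each gene is compared with itself across groups. Differences are given as log2 values with the standard error (SE) from limma's model over all 111 arrays, and p-values are limma's, adjusted by Benjamini and Hochberg's method over all 16029 tested genes. A gene is said to be higher or lower by the test when that adjusted p was under 0.05. Of the 39 tested collagens 23 were above the filter on dim signals on all 111 arrays, and Col6a4, Col6a5, Col17a1 and Col25a1 passed it on 23, 5, 8 and 8 arrays. Passing arrays of these 4 genes lay in 13, 5, 6 and 6 groups. The 10 muscle fibre markers, among them Acta1 and Ckm, had median signals of 7117 to 12400 over all arrays, and the lowest on any array was 3250. On 7 arrays the dimmest signals were raised (bright-background arrays), 5 of them from cast legs, 1 from a casting control leg and 1 from a sham leg. Counts that rest on these arrays are also given without them.

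**Figure D1:**
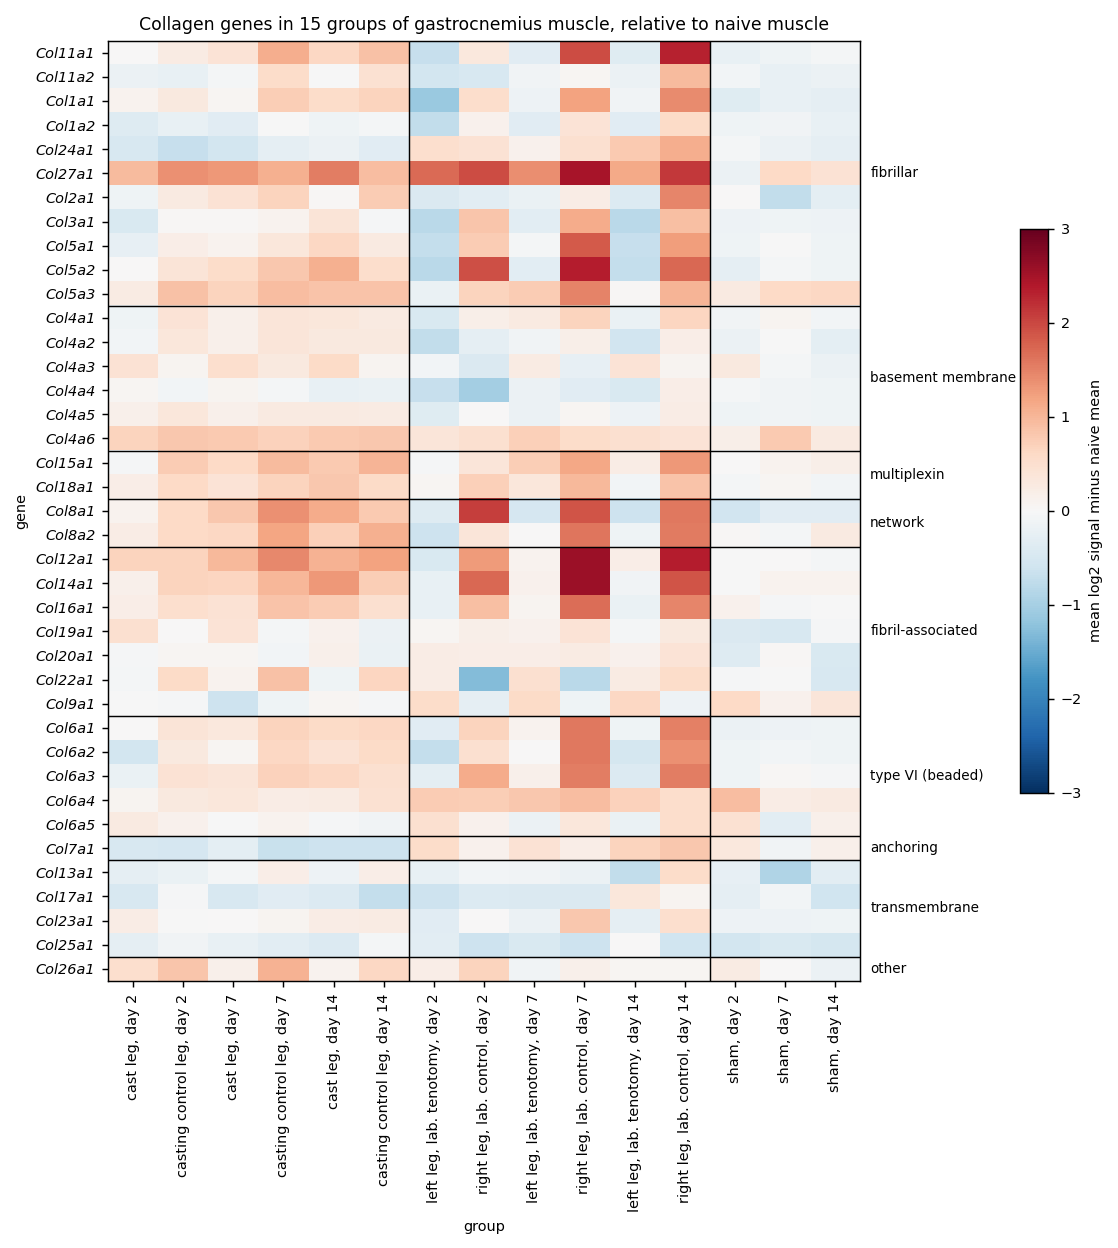
Mean log2 signal of the 39 tested collagens in 15 groups minus the naive mean, with genes in rows by family and groups in columns ("lab." stands for labelled). Red is higher and blue lower than naive muscle, on a scale from -3 to 3. The right legs of the tenotomy cohort carry the strongest red in the fibrillar, network, fibril-associated and type VI blocks, where Col14a1 at day 7 was 2.56 above naive.

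The fibrillar collagens, the load-bearing fibres of tendon and connective tissue, were lower in left legs labelled tenotomy than in right legs labelled control at every day. Of 11 tested members, 7 were lower at day 2, 8 at day 7 and 10 at day 14, and none was higher. Their median differences were -0.87, -1.08 and -1.53, against -0.02, 0.00 and -0.02 over all genes. Over all 39 collagens 18 were lower and 2 higher at day 2, where 20.8% of all tested genes were lower and 15.9% higher. At day 7, 20 were lower and 2 higher, against 18.3% and 14.6% of all genes, and at day 14, 24 were lower and 1 higher, against 13.5% and 9.71%. In either direction these were 51.3%, 56.4% and 64.1% of the collagens, against 36.7%, 32.9% and 23.2% of all genes.

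Col3a1, the chain of type III collagen, which is abundant in healing and elastic connective tissue, had signals of 1791, 2151, 2293, 2424 and 3887 in left legs at day 2, against 6458, 6891, 8143, 8173 and 8269 in right legs. At day 14 its signals were 1721, 2479, 2577, 2634 and 2774 in left legs, against 7446, 7656, 7815, 7838 and 9303 in right legs. At day 7 the left legs ran from 2434 through a median of 3194 to 5523, against 7418, 9653 and 9993 in right legs. The legs did not overlap at any day. The left minus right differences were -1.64 ± 0.21, -1.42 ± 0.18 and -1.73 ± 0.21 at days 2, 7 and 14 (SE, limma adjusted p = 1.04e-10, 6.15e-11 and 1.27e-10), and the left leg was lower in all 16 animals with both legs. Sham muscles at day 2 had signals of 2187, 4390 and 5654, and naive muscles ran from 3552 through 4401 to 5003. The second bright probe set of Col3a1 gave larger differences of -2.97, -3.13 and -3.07.

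Col5a2, a chain of type V collagen, which nucleates fibrils and sets their diameter, showed the largest leg difference of the fibrillar chains at days 2 and 7. Its signals at day 2 were 195.8, 241.1, 287, 310.4 and 361 in left legs, against 1332, 1758, 1795, 1947 and 2710 in right legs. At day 14 they were 250, 269.1, 276.5, 333.8 and 335.1 in left legs, against 1269, 1306, 1390, 1526 and 2948 in right legs. No left leg reached the lowest right leg at any day. The differences were -2.75 ± 0.25, -2.68 ± 0.22 and -2.44 ± 0.26 (SE, limma adjusted p = 1.27e-16, 2.31e-19 and 5.63e-13), which is 6.72-fold, 6.39-fold and 5.42-fold lower in left legs. Its partner chain Col5a1 differed by -1.48, -1.90 and -1.93, lower in the left leg of all 16 animals.

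The chains of type I collagen, the main protein of tendon, were also lower in left legs. Col1a1 had signals of 607.5, 1158, 1301, 1853 and 2181 in left legs at day 2, against 2963, 3811, 3991, 4034 and 5932 in right legs. Its differences were -1.63 ± 0.33, -1.37 ± 0.28 and -1.53 ± 0.33 (SE, limma adjusted p = 1.93e-05, 3.08e-05 and 0.000188), and the legs did not overlap at any day. Col1a2 differed by -0.86, -0.75 and -0.93 on its brightest probe set and by -1.70, -1.53 and -1.59 on its second. In bulk muscle, fewer cells of a type and less RNA per cell cannot be told apart, for these genes and for every collagen below.

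Col11a1, a fibrillar chain of cartilage and tendon that is built into thin fibrils, had a leg difference of -1.02 ± 0.32 at day 2, -2.29 ± 0.27 at day 7 and -2.69 ± 0.32 at day 14 (SE, limma adjusted p = 0.00667, 8.27e-12 and 6.48e-11). Its signals at day 14 were 35.15, 43.72, 56.8, 57.08 and 57.09 in left legs, against 226.7, 233.6, 277.2, 335.2 and 908.3 in right legs. Neither the change of its leg difference between days 2 and 7 nor that between days 7 and 14 passed the test. No change of a collagen's leg difference between days 2 and 7 passed the test, and leaving out single muscles gave 0 to 2. Of all genes 4.6% passed, 3.25% upward and 1.35% downward. Col2a1, the fibrillar collagen of cartilage, had signals of 3.852, 11.09, 15.8, 22.66 and 35.05 in left legs at day 14, against 28.9, 45, 51.96, 66.87 and 240.8 in right legs. It differed by -1.87 ± 0.52 (SE, limma adjusted p = 0.00384), with overlapping legs and 1 right muscle far above the others. The score of 6 cartilage markers, a mean log2 signal relative to naive, ran from -0.42 to 0.47 in left legs at day 14 and from 0.32 to 2.11 in right legs. Of these markers 4 were lower in left legs, where 13.5% of all genes were, and Acan and Hapln1 had median signals of 13.75 and 5.475 over all arrays. Their part in the Col2a1 and Col11a1 differences was not tested.

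**Figure D2:**
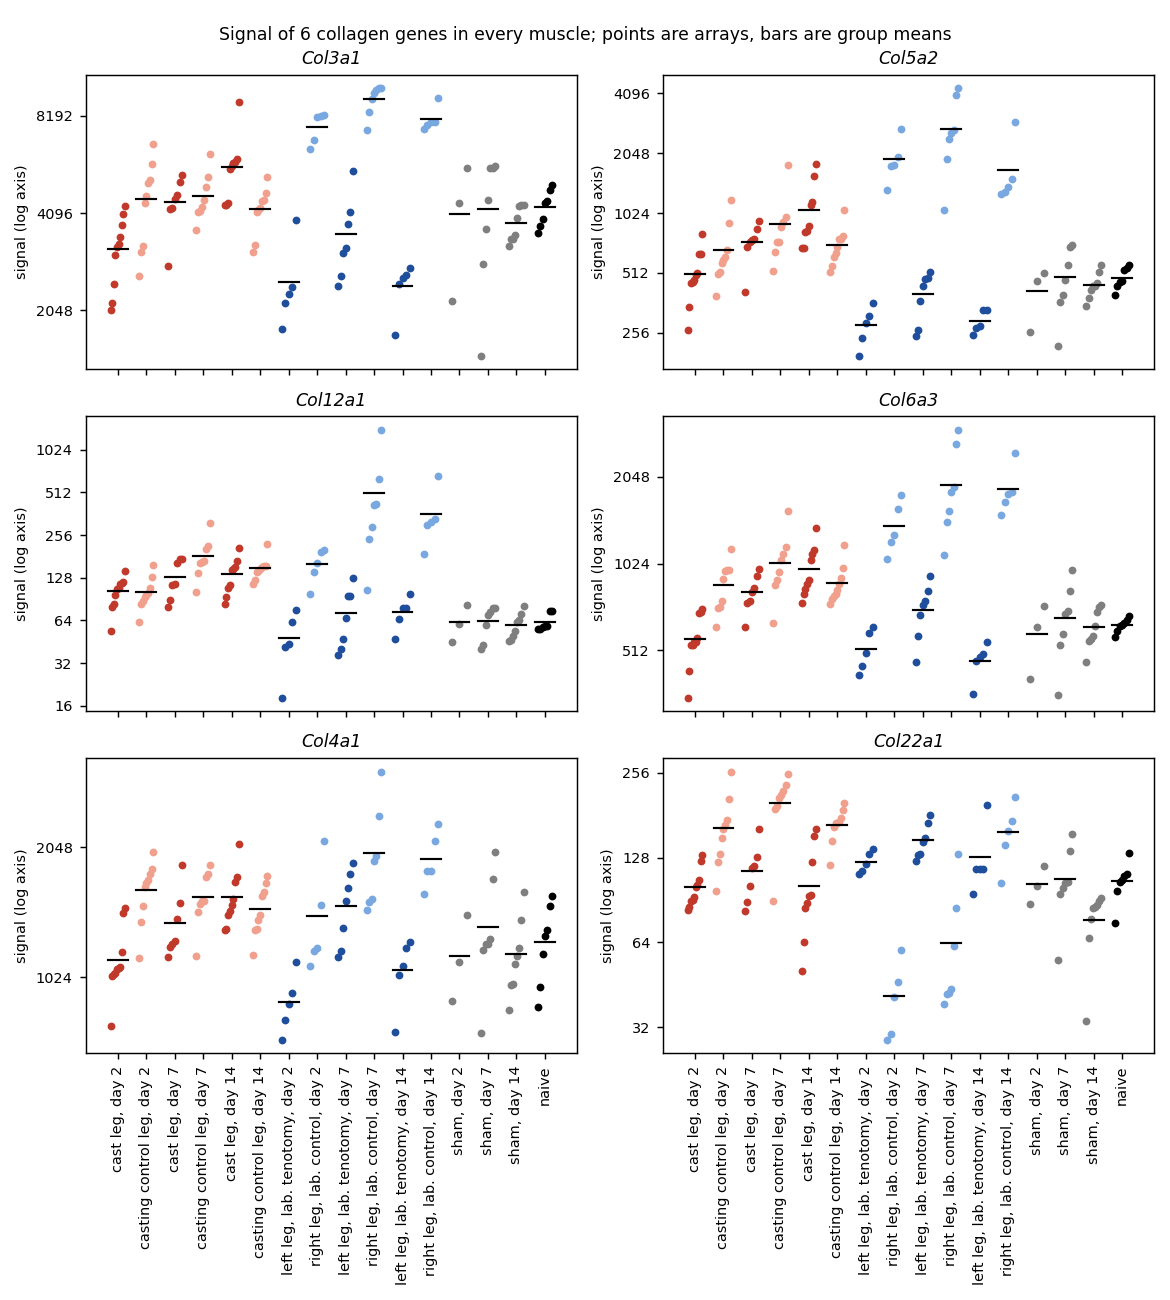
Signal of Col3a1, Col5a2, Col12a1, Col6a3, Col4a1 and Col22a1 on a log axis in every muscle of the 16 groups, with points for arrays and bars for group means ("lab." stands for labelled). The left legs of the tenotomy cohort (dark blue) lie below the right legs (light blue) in Col3a1, Col5a2 and Col6a3 at every day, while in Col22a1 they lie above them at day 2.

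Both tested network-forming collagens, chains of type VIII that form hexagonal lattices in vessel walls and below epithelia, were lower in left legs at every day. Col8a1 had signals of 39.49, 52.58, 57.52, 83.21 and 102.2 in left legs at day 2, against 218.3, 380.6, 384.4, 427.8 and 494.3 in right legs. Its leg differences were -2.46 ± 0.31, -2.40 ± 0.26 and -2.20 ± 0.31 at days 2, 7 and 14 (SE, limma adjusted p = 8.44e-11, 6.43e-13 and 2.5e-08). The legs were separate at days 2 and 14 and overlapped at day 7, when left legs ran from 43.3 to 81.83 and right legs from 80.39 to 589.5. Col8a2 differed by -0.97, -1.61 and -1.67.

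The fibril-associated collagens were mixed. Of 7 tested members, 3 were lower in left legs at every day, and these were Col12a1, Col14a1 and Col16a1. Higher in left legs were Col22a1 and Col9a1 at days 2 and 7 and Col9a1 alone at day 14. Of all tested genes 20.8%, 18.3% and 13.5% were lower and 15.9%, 14.6% and 9.71% higher at days 2, 7 and 14. Col12a1, type XII of tendon and fascia, had signals of 18.23, 41.5, 43.36, 62.83 and 75.8 in left legs at day 2, against 98.04, 140.5, 161.8, 194.1 and 200.4 in right legs. Its differences were -1.72 ± 0.29, -2.46 ± 0.25 and -2.15 ± 0.29 (SE, limma adjusted p = 4.35e-07, 9.44e-15 and 6.35e-09), with overlapping legs at day 7 alone. Col14a1, type XIV of perimysium and tendon, had signals of 77.49, 80.31, 86.76, 89.87 and 93.77 in left legs at day 14, against 230, 278.7, 379.5, 426.4 and 515.8 in right legs. It differed by -1.96 ± 0.25, -2.44 ± 0.21 and -1.99 ± 0.25 (SE, limma adjusted p = 6.52e-11, 4.62e-18 and 3.21e-10), with no overlap at any day. Col16a1 differed by -1.13, -1.59 and -1.67.

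The muscle chains of type VI collagen, Col6a1, Col6a2 and Col6a3, whose loss causes inherited myopathies in humans, were lower in left legs at all 3 days. Col6a2 had signals of 458.2, 507.8, 513.9, 570.2 and 612.5 in left legs at day 2, against 894.9, 1201, 1214, 1254 and 1609 in right legs. At day 14 its signals were 431.2, 618.6, 627.9, 683.6 and 720 in left legs, against 1829, 2097, 2161, 2260 and 3191 in right legs. The legs of these 3 genes were separate at every day. The Col6a2 differences were -1.19 ± 0.21, -1.56 ± 0.18 and -1.89 ± 0.21 (SE, limma adjusted p = 1.37e-06, 3.01e-12 and 6.81e-12). Col6a1 differed by -1.02, -1.47 and -1.65, and Col6a3 by -1.41, -1.38 and -1.95. The dim chains Col6a4 and Col6a5 did not pass the test at any day, with differences between -0.71 and 0.35.

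On the probe sets chosen, the type IV chains of the basement membrane differed less. Col4a1 was lower in left legs at all 3 days and Col4a2 at days 2 and 14, and the other 4 chains did not pass the test, so that 2, 1 and 2 of 6 were lower. Of all tested genes 20.8%, 18.3% and 13.5% were lower at days 2, 7 and 14, so the count at day 7 was near the background. That Col4a5 did not pass rests on the choice of probe set. Its chosen probe set gave -0.37, -0.24 and -0.38. The second, nearly as bright and above the filter on all 111 arrays, gave -0.87, -0.77 and -1.22 and was not tested by itself. Col4a1 had signals of 733.9, 816.8, 888.7, 942.2 and 1107 in left legs at day 2, against 1085, 1179, 1198, 1504 and 2109 in right legs. Its differences were -0.62 ± 0.17, -0.38 ± 0.14 and -0.86 ± 0.17 (SE, limma adjusted p = 0.00126, 0.0266 and 2.89e-05), with overlap at days 2 and 7. At day 7 the difference did not pass with only the compared groups in the fit (adjusted p = 0.0743). Col4a2 differed by -0.46, -0.28 and -0.79, and its call at day 2 was lost without either of 2 right legs or without 1 left leg, with adjusted p between 0.0614 and 0.152. Over all 111 arrays the log2 signals of Col4a1 and Col4a2 had SDs of 0.39 and 0.41, and the difference between them an SD of 0.22, a description of arrays that share groups. The multiplexins, whose C-terminal pieces include endostatin, were lower in left legs at day 14, with Col15a1 at -1.07 ± 0.19 and Col18a1 at -0.95 ± 0.20 (SE, limma adjusted p = 3.81e-06 and 0.000167). Col15a1 had signals of 105.6, 175.9, 208.8, 215.5 and 238.8 in left legs at that day, against 293.2, 368.1, 406.8, 437.7 and 444.9 in right legs. At day 7 they differed by -0.41 and -0.65, and the Col15a1 call was lost without the animal in the fit (adjusted p = 0.0525). At day 2 Col18a1 passed (-0.64, adjusted p = 0.00724) and Col15a1 did not (-0.41, adjusted p = 0.0776), though it was lower in the left leg of all 5 animals and passed under a fixed animal block (adjusted p = 0.0274) and in a fit to the compared legs alone (adjusted p = 0.0233), and without 1 right leg Col18a1 had an adjusted p of 0.0893.

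**Figure D3:**
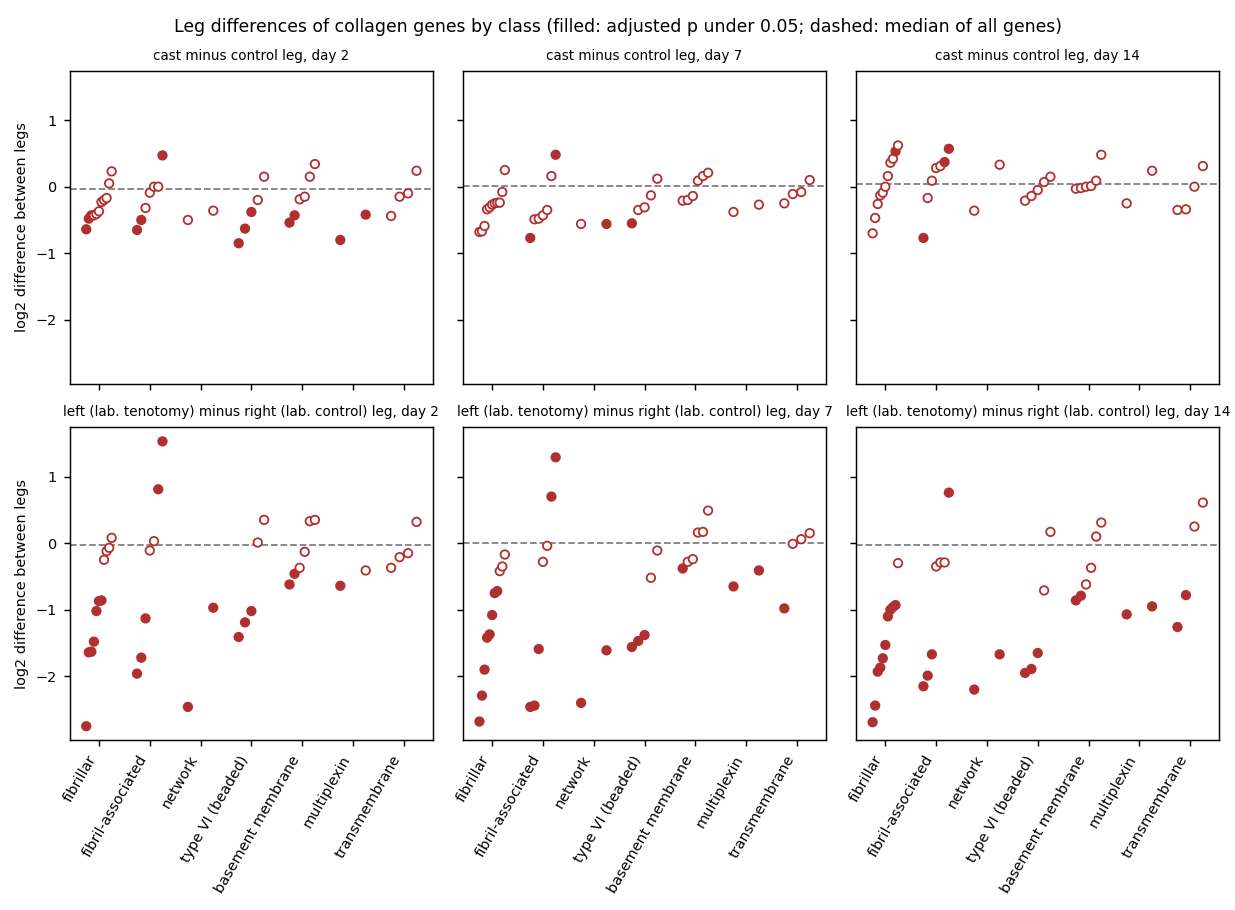
Log2 difference between legs of each tested collagen by family, for casting (top row) and tenotomy animals (bottom row) at days 2, 7 and 14, with filled points for adjusted p under 0.05 and a dashed line at the median of all genes ("lab." stands for labelled). In the bottom row the fibrillar medians are -0.87, -1.08 and -1.53 while the basement membrane medians are -0.25, -0.04 and -0.50.

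Col22a1 and Col9a1 ran against the other collagens of the tenotomy mice. Col22a1, the collagen of the myotendinous junction where muscle fibres meet tendon, had signals of 111.9, 114.8, 122, 131.8 and 136.9 in left legs at day 2, against 28.88, 30.24, 41.03, 46.11 and 60.18 in right legs. At day 7 left legs ran from 124.3 through 146 to 182, against 38.55, 43.75 and 132.4 in right legs. At day 14 the order was gone, with 95.18, 116.6, 116.8, 116.9 and 197.2 in left legs and 104.4, 142.4, 159, 172.5 and 210.6 in right legs. The differences were 1.53 ± 0.22, 1.29 ± 0.19 and -0.29 ± 0.22 (SE, limma adjusted p = 5.7e-09, 1.13e-08 and 0.398), and the left leg was higher in all 5 and all 7 animals at days 2 and 7. The fall of the difference between days 7 and 14, -1.57 ± 0.29, was the single change of a collagen's leg difference between these days that passed (limma adjusted p = 0.00434), where 0.0749% of all genes did, 0.0312% upward and 0.0437% downward. With only the groups compared in the fit, no collagen passed. All 3 bright probe sets of Col22a1 gave the same sign at days 2 and 7. Col9a1, a chain of the cartilage collagen IX, was higher in left legs by 0.81, 0.70 and 0.76 at days 2, 7 and 14, with overlapping legs at each day. Its second bright probe set gave smaller differences of 0.35, 0.15 and 0.17. The lowest animal ran the other way at days 7 and 14, at -0.21 and -0.76. Its calls were not among those run under the alternative settings.

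Among the remaining members of the tenotomy mice, Col23a1, a transmembrane collagen, was lower in left legs at days 7 and 14, with differences of -0.98 and -0.78. Col13a1, a transmembrane collagen of the neuromuscular junction, was lower at day 14 (-1.26 ± 0.41 (SE), limma adjusted p = 0.0154), and with the animal as a fixed block this call was lost (-0.94, adjusted p = 0.192). Leaving out 1 of 3 single legs also ended the Col13a1 call, with adjusted p of 0.0502 to 0.0707. The Col23a1 call at day 14 was lost without 1 right leg or either of 2 left legs, with adjusted p of 0.0556 to 0.111. Col7a1, Col17a1, Col25a1 and Col26a1 did not pass the test at any day.

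The right legs labelled control were also set against sham muscle. At day 2, 14 collagens were higher and 3 lower in right legs than in sham (43.6% of them against 35% of all genes, of which 19.6% were higher and 15.5% lower). At day 7, 23 were higher and 1 lower (61.5% against 41.2%, with 23.5% higher and 17.7% lower). At day 14, 26 were higher and 0 lower (66.7% against 35.9%, with 20.6% higher and 15.3% lower). Fibrillar members numbered 4, 9 and 10 of 11 among the higher ones, with medians of 0.55, 1.25 and 1.38. Col12a1 was higher by 1.29, 2.56 and 2.43, Col14a1 by 1.75, 2.46 and 1.78 and Col5a2 by 2.22, 2.43 and 1.84 at days 2, 7 and 14. With the mean of its probe sets Col12a1 did not pass at day 2 (0.55, adjusted p = 0.0651). That mean weighs dim probe sets like bright ones, and it took in probe sets of Col12a1 above the filter on 0 and 2 arrays. Col22a1 was lower than sham at day 2 by -1.27 ± 0.27 and at day 7 by -0.79 ± 0.20, and higher at day 14 by 1.01 ± 0.21 (SE, limma adjusted p = 5.04e-05, 0.000471 and 4.14e-05). The day 2 sham group had 3 muscles, and leaving out a single muscle gave counts of 10 to 18 at that day. Without the third sham muscle of day 2, Col3a1 (0.60, adjusted p = 0.0994) and Col5a1 (0.70, adjusted p = 0.0848) no longer passed. These comparisons share the right legs with the leg differences above. The log2 ratio of beta-actin's 3′ and 5′ probe sets is a measure of RNA integrity. It averaged -0.02, 0.11 and 0.08 in right legs at days 2, 7 and 14. In sham muscle it averaged -1.31, -1.27 and -1.12, and its part in these differences was not tested.

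In left legs labelled tenotomy 1, 4 and 3 collagens were higher than in sham and 0, 0 and 2 lower at days 2, 7 and 14, against 9.99%, 19.1% and 20.7% of all genes in either direction. Of all genes 4.34%, 9.7% and 10% were higher and 5.66%, 9.45% and 10.7% lower. At day 2 the collagen that passed was Col27a1, a fibrillar chain of developing cartilage (1.88 ± 0.38 (SE), limma adjusted p = 0.00023). At day 7 Col27a1, Col15a1, Col19a1 and Col7a1 were higher, by 0.78, 0.63, 0.62 and 0.54. With the mean of probe sets Col19a1 did not pass (0.20, adjusted p = 0.455), and under quantile normalization neither Col27a1 (adjusted p = 0.0542) nor Col7a1 (adjusted p = 0.0518) did. At day 14 Col24a1, Col20a1 and Col22a1 were higher by 1.05, 0.58 and 0.72, and Col3a1 and Col5a3 lower by -0.65 and -0.60. Col20a1 was lost with the mean of probe sets (0.32, adjusted p = 0.0978) and in a fit to the compared groups alone (adjusted p = 0.0686), and leaving out 1 left leg ended the call of Col22a1 (0.56, adjusted p = 0.0661) or of Col3a1 (-0.53, adjusted p = 0.0657). Both legs of the tenotomy mice were above sham in Col27a1 at days 2 and 7, where right legs differed from sham by 2.13 and 1.87. The beta-actin ratio averaged -0.83, -0.38 and -0.58 in left legs at days 2, 7 and 14. In sham muscle it averaged -1.31, -1.27 and -1.12, and its part in the left leg results was not tested.

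In sham against naive muscle 0, 0 and 1 collagens passed at days 2, 7 and 14, where 0%, 0.63% and 2.26% of all genes did. Of all genes 0.25% were higher and 0.381% lower at day 7, and 1.02% and 1.25% at day 14. The collagen at day 14 was Col5a3, higher by 0.63 ± 0.16 (SE, limma adjusted p = 0.0153), which did not pass with the mean of its probe sets (adjusted p = 0.0513). That mean includes a probe set above the filter on 55 arrays. Sham muscles varied at day 7, where Col3a1 ran from 1480 to 5733 and Col5a2 from 219.6 to 710.4.

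Markers of other cells moved with these legs. The macrophage score, a mean over 14 markers relative to naive, ran from -0.97 to 0.17 in left legs at day 2, against 2.58 to 3.01 in right legs, and from -0.72 to -0.10 in left legs at day 14, against 0.35 to 1.19 in right legs. All 14 macrophage markers were higher in right legs than in sham at days 2 and 7, and 7 were at day 14. Of all tested genes 19.6%, 23.5% and 20.6% were higher in right legs than in sham at days 2, 7 and 14. The fibroblast score over 9 markers ran from -0.48 to 0.21 in left legs at day 7, against 0.45 to 1.85 in right legs, and 8 of 9 were higher in right legs than in sham. The tenocyte score over 7 markers ran from -0.86 to 0.00 in left legs at day 14, against 0.98 to 1.87 in right legs, with 6 of 7 higher in right legs than in sham. The fibroblast markers Dcn, Dpt and Lum and the tenocyte markers Fmod and Kera also belong to the list of fibril-binding proteins described below. The endothelial score over 8 markers averaged -0.28, -0.10 and -0.16 in left legs and -0.22, -0.14 and -0.11 in right legs at days 2, 7 and 14. The muscle fibre score over 10 markers averaged -0.16, -0.32 and -0.21 in left legs and -0.73, -0.68 and -0.45 in right legs. The log2 ratio of the 3′ to the 5′ probe set of beta-actin, a measure of RNA integrity, was lower in the left leg of 15 of 16 pairs, by -0.81, -0.49 and -0.65 on average at days 2, 7 and 14. The Schwann cell and adipocyte scores, over 4 markers each, averaged 0.08 and -1.19 in left legs at day 14, against 0.18 and -0.98 in right legs. The part of each of these in the collagen differences was not tested.

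**Figure D4:**
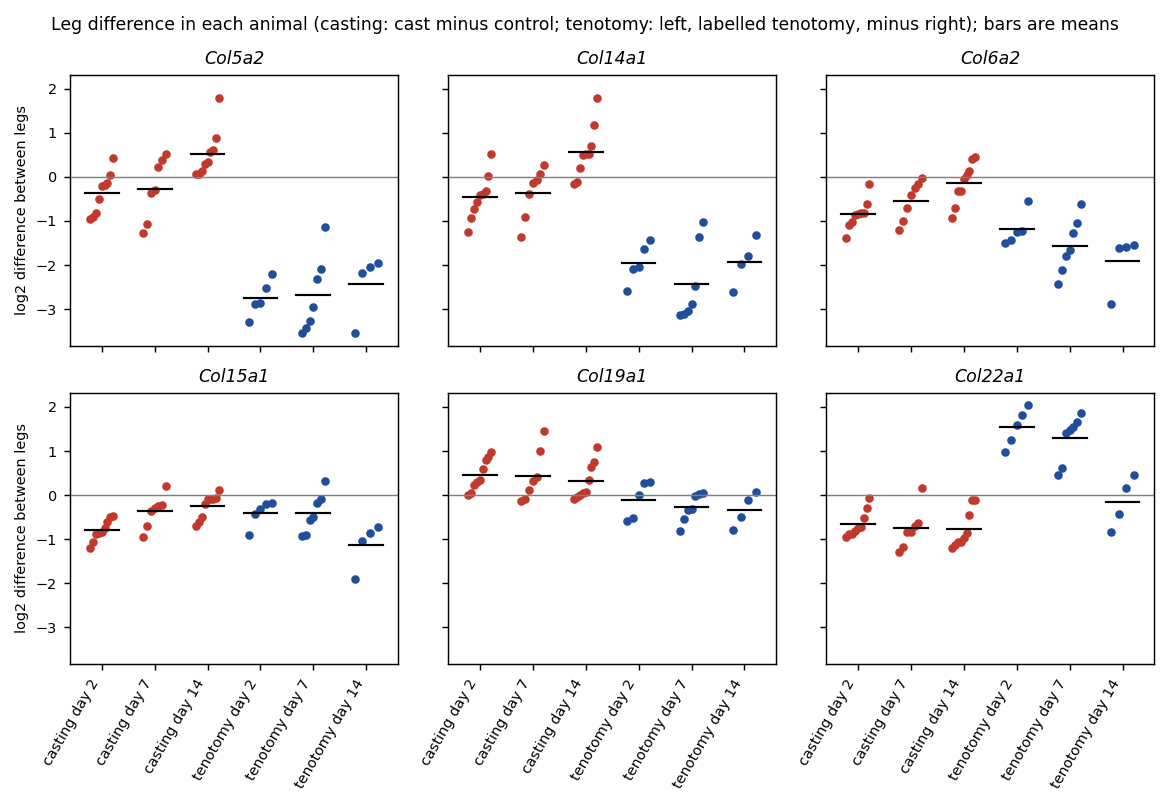
Log2 difference between legs in each animal with both legs for Col5a2, Col14a1, Col6a2, Col15a1, Col19a1 and Col22a1, cast minus control in casting (red) and left, labelled tenotomy, minus right in tenotomy animals (blue), with bars for means. Every tenotomy animal lies below 0 in Col5a2, Col14a1 and Col6a2, and Col22a1 lies above 0 at days 2 and 7 of tenotomy and below 0 at days 2 and 14 of casting.

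In the casting cohort at day 2, 12 of 39 collagens were lower and 1 higher in cast than in control legs (33.3% against 24.3% of all genes, of which 13.3% were lower and 11% higher). The lower ones were Col4a1 and Col4a2 of the basement membrane, both multiplexins, Col6a1, Col6a2 and Col6a3 of type VI, the fibrillar Col3a1, Col5a1 and Col5a3, and the fibril-associated Col14a1 and Col22a1. Col1a1 (-0.20 ± 0.24) and Col1a2 (-0.17 ± 0.17) did not pass, nor did Col12a1 (0.00 ± 0.21). Without the 7 bright-background arrays, 9 were lower and 1 higher at day 2, and Col5a1, Col18a1 and Col6a1 no longer passed (adjusted p = 0.113, 0.0795 and 0.103). With the animal as a fixed block, Col5a1 (adjusted p = 0.115) and Col14a1 (adjusted p = 0.0857) did not pass, and with the mean of probe sets neither Col14a1 (adjusted p = 0.161) nor Col3a1 (adjusted p = 0.0519) did. The Col14a1 mean includes a probe set above the filter on 4 arrays. Of the marker lists, 9 of 14 macrophage, 4 of 9 fibroblast and 3 of 7 tenocyte markers were lower in cast legs at day 2, and their part in the result was not tested.

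Col6a2 and Col15a1 fell the most at day 2 of casting. Col6a2 ran from 266.3 through 637 to 825 in cast legs, against 705.8, 1091 and 1525 in control legs. It was lower by -0.85 ± 0.15 (SE, limma adjusted p = 5.26e-06), in 9 of 9 animals. Col15a1 ran from 91.76 through 152.4 to 210.5 in cast legs, against 203.9, 256.7 and 362.3 in control legs. Only the ends of the Col15a1 ranges overlapped, the difference was -0.80 ± 0.13 (SE, limma adjusted p = 1.02e-06), and the cast leg was lower in 9 of 9 animals. Col4a1 ran from 790.4 through 1073 to 1476 in cast legs, against 1135, 1693 and 1997 in control legs, with a difference of -0.54 ± 0.12 (SE, limma adjusted p = 0.000237) and a lower cast leg in 9 of 9 animals. Relative to naive muscle, cast legs at day 2 averaged -0.55 for Col6a2, -0.03 for Col15a1 and -0.13 for Col4a1, against 0.29, 0.77 and 0.41 in control legs.

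Col22a1 was lower in cast legs at each day, by -0.65 ± 0.16, -0.77 ± 0.18 and -0.77 ± 0.16 at days 2, 7 and 14 (SE, limma adjusted p = 0.000995, 0.00178 and 0.000389). At day 14 cast legs ran from 50.46 through 93.37 to 162.4, against 120.8, 169.9 and 200.5 in control legs. The cast leg was lower in 9 of 9 animals at days 2 and 14 and in 6 of 7 at day 7. Col22a1 in control legs of casting was 0.58, 0.87 and 0.65 above naive, and in cast legs it was -0.06, 0.10 and -0.12 from naive. Col19a1, a rare fibril-associated collagen of embryonic muscle and of basement membrane zones, was higher in cast legs at day 2 by 0.47 ± 0.14 (SE, limma adjusted p = 0.00914), in 9 of 9 animals. At day 7 it was higher by 0.48 (adjusted p = 0.0441), and 7 of 11 alternative settings ended that call, the fixed animal block among them (adjusted p = 0.0988).

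At day 7 of casting 4 collagens were lower and 1 higher (12.8% against 8.77% of all genes, 4.55% lower and 4.22% higher). At day 14, 1 was lower and 3 were higher (10.3% against 13.2%, 6.04% lower and 7.17% higher). The lower ones at day 7 were Col22a1, Col6a2, Col8a2 and Col26a1. At day 14 Col14a1 was higher by 0.57 ± 0.18, Col5a2 by 0.53 ± 0.19 and Col20a1 by 0.37 ± 0.13 (SE, limma adjusted p = 0.0254, 0.0492 and 0.0457). The 3 bright probe sets of Col20a1 disagreed in sign at that day, at 0.37, 0.43 and -0.30. Col14a1 ran from 120.8 through 208.4 to 478.4 in cast legs at day 14, against 133.1, 145.6 and 234.2 in control legs. Col5a2 was higher in the cast leg of 9 of 9 animals, and with the animal as a fixed block its adjusted p was 0.0611. The Col5a2 call was lost in 6 of 11 alternative settings. Col3a1 (0.42) did not pass at day 14, and it passed in some alternative settings and not in others. It passed with a fixed animal block (adjusted p = 0.0459) and with the mean of its probe sets (0.75, adjusted p = 0.0056). Its second bright probe set gave 1.08. Without the 7 bright-background arrays, 2 collagens passed at day 7 and 1 at day 14, and the higher calls of Col14a1 and Col5a2 were lost (adjusted p = 0.0612 and 0.0616). With the mean of all probe sets, Col26a1 (adjusted p = 0.313), Col14a1 (adjusted p = 0.128) and Col5a2 (adjusted p = 0.18) did not pass. For Col26a1 and Col14a1 that mean includes a probe set above the filter on 4 arrays. The Col8a2 call was lost in 6 of 11 alternative settings, the fixed animal block among them (adjusted p = 0.112). Col8a2 has 1 probe set, so under the mean its difference stayed at -0.56 while its adjusted p became 0.0626.

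Over time the casting difference of several collagens turned upward. From day 2 to day 14 it rose in 11 of 39 and fell in 0 (28.2% against 14.3% of all genes, of which 8.24% rose and 6.03% fell). Col14a1 rose by 1.07 ± 0.26, Col3a1 by 0.90 ± 0.22, Col5a2 by 0.90 ± 0.27 and Col6a3 by 0.78 ± 0.19 (SE, limma adjusted p = 0.00165, 0.00177, 0.0124 and 0.00182). Col3a1 in cast legs had a median of 3252 at day 2, 4543 at day 7 and 5734 at day 14, against 4615, 4388 and 4237 in control legs. Col1a1, Col1a2 and Col22a1 were not among those that rose. Without the 7 bright-background arrays the count was 7, with Col15a1, Col18a1 and Col6a2 among those lost (adjusted p = 0.12, 0.0534 and 0.0973). The macrophage score in cast legs averaged 0.22 at day 2 and 1.35 at day 14, against 0.75 and 0.59 in control legs, and 13 of 14 of these markers rose in the same comparison. The fibroblast score averaged -0.13 and 0.50 in cast legs, against 0.13 and 0.25 in control legs, with 5 of 9 rising. The log2 ratio of beta-actin's 3′ and 5′ probe sets differed between cast and control legs by 0 at day 2, higher in the cast leg of 5 of 9 pairs, and by -0.33 at day 14, higher in 1 of 9. Their part in the collagen change was not tested.

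In control legs of casting, averaged over the 3 days, 19 collagens were higher and 2 lower than in naive muscle (53.8% against 32.6% of all genes, of which 19.9% were higher and 12.7% lower). Higher were both multiplexins, both type VIII chains, Col4a1, Col4a2 and Col4a6, 3 of 5 type VI chains and Col22a1, and the fibrillar Col27a1 (1.12 ± 0.22), Col5a3 (0.88 ± 0.13), Col11a1 (0.73 ± 0.22) and Col5a2 (0.57 ± 0.18). Col15a1 was higher by 0.92 ± 0.13 and Col12a1 by 1.11 ± 0.21 (SE, limma adjusted p = 8.67e-09 and 5.98e-06). With the mean of probe sets Col5a3 (0.30, adjusted p = 0.0941) and Col26a1 (0.43, adjusted p = 0.0592) did not pass. Those means include a probe set above the filter on 55 arrays for Col5a3 and on 4 for Col26a1. Col7a1 and Col24a1 were lower, by -0.60 and -0.43. All 10 muscle fibre markers were lower than naive and 13 of 14 macrophage markers higher in these legs. The log2 ratio of beta-actin's 3′ and 5′ probe sets averaged -0.73, -0.49 and -0.33 in them at days 2, 7 and 14, against -1.19 in naive muscle (SD 0.08, n = 7). The part of these in the collagen differences was not tested, and cohort and casting cannot be told apart here.

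The difference between the tenotomy and casting leg differences was tested directly. At day 2, 11 collagens were lower and 2 higher in tenotomy (33.3% against 34.9% of all genes, 19.3% lower and 15.6% higher), a share near the background. At day 7, 15 were lower and 2 higher (43.6% against 29.5%, 16.8% lower and 12.7% higher). At day 14, 22 were lower and 1 higher (59.0% against 28.7%, 16.7% lower and 12% higher). At day 2 none of the 6 type IV chains and neither multiplexin passed, while 5 of 11 fibrillar collagens did, with Col5a2 at -2.38 and Col1a1 at -1.43. Of these 5, Col1a2 (-0.69) was lost in 11 alternative settings, among them no animal block (adjusted p = 0.0696), array weights (adjusted p = 0.055), no filter (adjusted p = 0.0589) and leaving out 1 left leg (-0.50, adjusted p = 0.199). At day 14 Col4a1 (-0.95), Col4a2 (-0.79) and both multiplexins passed as well, and without 1 left leg Col1a1 (-0.99, adjusted p = 0.062) and Col1a2 (-0.56, adjusted p = 0.148) did not. With the legs exchanged as the design text has it, 22 collagens passed at day 2 and the signs of the named collagens turned.

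Genes that modify, fold, process or cross-link collagen followed the legs of the tenotomy mice. Of 24 tested members, 16 were lower and 1 higher in left legs at days 2 and 7, and 14 lower and 1 higher at day 14. Of all tested genes 20.8%, 18.3% and 13.5% were lower and 15.9%, 14.6% and 9.71% higher. The medians of the 24 genes were -0.72, -0.74 and -0.66. Lox, the lysyl oxidase that starts the cross-linking of fibrils, ran from 58.38 through 89.76 to 133.5 in left legs at day 2, against 865.1, 1250 and 1734 in right legs. It was lower by -3.74 ± 0.27, -3.50 ± 0.23 and -2.24 ± 0.28 at days 2, 7 and 14 (SE, limma adjusted p = 4.09e-22, 3.73e-24 and 2.2e-10), which was 13.4-fold, 11.3-fold and 4.74-fold. Plod2, the lysyl hydroxylase of the telopeptides, differed by -1.78, -2.49 and -1.51, and Serpinh1, the collagen chaperone HSP47, by -1.89, -1.41 and -1.38. P4ha1 and P4ha2, the catalytic subunits of collagen prolyl 4-hydroxylase that are most widely expressed, did not pass at any day, with differences between -0.20 and 0.06. P4ha2 was named after its values were seen.

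In cast legs, 10 of 24 of these genes were lower and 1 higher at day 2 than in control legs, at day 7, 5 were lower, and at day 14, 2 were lower and 3 higher. Of all tested genes 13.3%, 4.55% and 6.04% were lower and 11%, 4.22% and 7.17% higher at these days. P4ha1 ran from 87.09 through 103.2 to 173.7 in cast legs at day 2, against 179.8, 223.6 and 247.8 in control legs. The legs did not overlap at day 2, and the differences were -0.96 ± 0.09, -0.57 ± 0.10 and -0.38 ± 0.09 at days 2, 7 and 14 (SE, limma adjusted p = 1.75e-16, 6.87e-06 and 0.00113). Tenotomy minus casting, the P4ha1 difference was 0.92 at day 2 and 0.45 at day 7, which passed, and 0.18 at day 14, which did not. Without the bright-background arrays the P4ha1 call at day 7 was lost (0.37, adjusted p = 0.0503). Serpinh1 ran from 186.7 through 313.4 to 731.6 in cast legs at day 2, against 692.2, 865.8 and 1555 in control legs, a difference of -1.43 ± 0.17 (SE, limma adjusted p = 2.67e-11). Its difference between models did not pass at day 2 (-0.46). P3h2, a prolyl 3-hydroxylase of basement membrane collagen, was lower in cast legs by -0.95, -0.71 and -0.61. Lox did not pass at days 2 and 7 of casting (0.04 and -0.04), and at day 14 it was higher by 1.09 ± 0.20 (SE, limma adjusted p = 5.63e-05), in 9 of 9 animals.

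**Figure D5:**
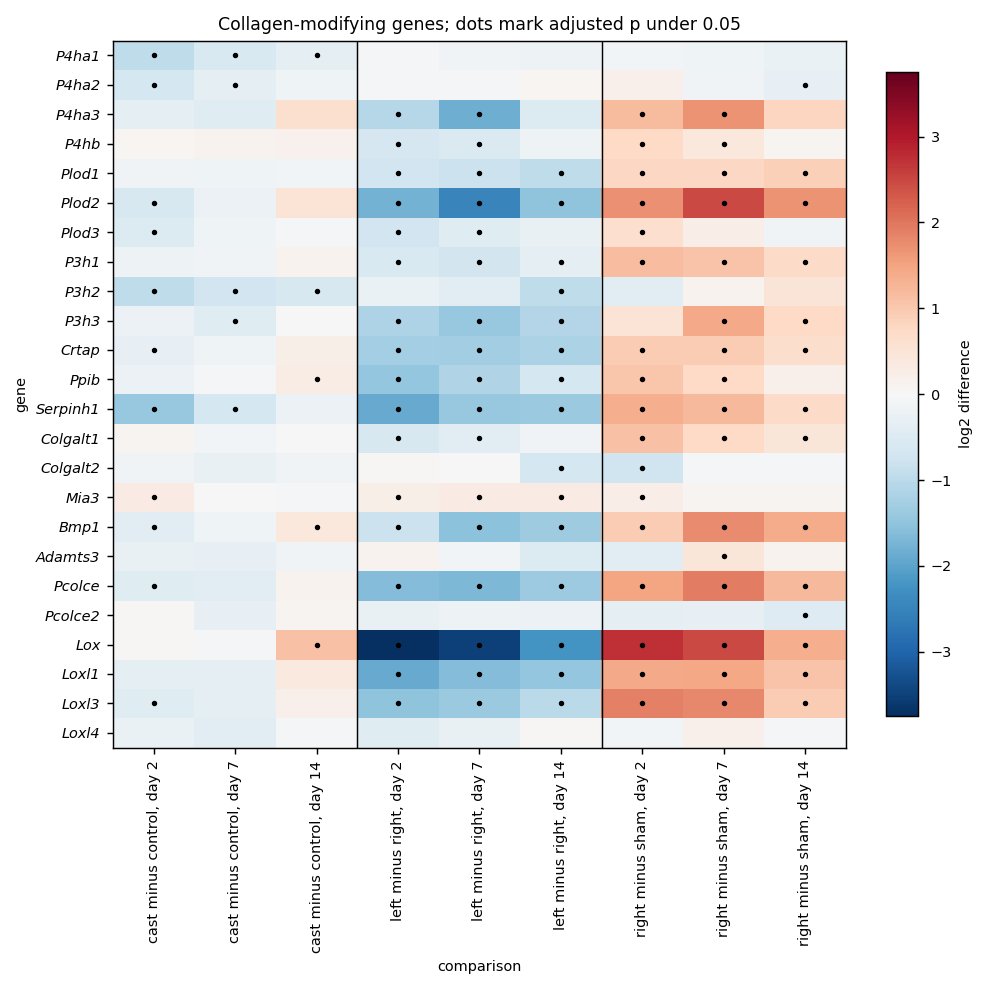
Log2 differences of the 24 tested collagen-modifying genes in rows, for cast minus control legs, left (labelled tenotomy) minus right (labelled control) legs and right legs minus sham at days 2, 7 and 14 in columns, with dots for adjusted p under 0.05. P4ha1, P4ha2 and P3h2 are marked at days 2 and 7 of casting, and Lox, from -3.74 to -2.24, is the darkest blue in the left minus right columns.

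Proteins that bind collagen fibrils, such as small leucine-rich proteoglycans, numbered 11 tested genes, of which 8, 10 and 9 were lower in left legs of the tenotomy mice at days 2, 7 and 14, with medians of -0.99, -1.21 and -1.18, where 20.8%, 18.3% and 13.5% of all genes were lower. In casting 2 were lower at day 2, 1 was lower at day 7 and 2 were higher at day 14, where 13.3% and 4.55% of all genes were lower and 7.17% higher. Of 8 tested collagen receptors, which include integrins and the discoidin domain receptors, 6, 4 and 4 were lower in left legs at days 2, 7 and 14, with medians of -0.45, -0.40 and -0.44, beside the same shares of all genes. In casting 2 receptors were lower and 1 higher at day 2, where 13.3% and 11% of all genes were, and 0 passed at days 7 and 14, where limma's threshold called 8.77% and 13.2% of all genes.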

How the data were processed

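The deposited values are Affymetrix signal intensities per probe set on a linear scale, made by the authors with MAS5 in GCOS, per the submitters' processing notes, and no version is given in the sources used here. Each array's trimmed mean lay between 99.955 and 99.965, and array medians between 16.14 and 26.36. The number of arrays limits the precision. Signals were taken as log2(signal + 3.982), where the added value is the 20th percentile of all signals, so changes of dim genes are understated. A gene was tested if a probe set exceeded the 40th percentile of its array on at least 5 arrays, and its brightest such probe set stood for it. Of 45101 probe sets 34958 listed 1 gene, 932 several and 9211 none, and only those with 1 gene were used.

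limma 3.58.1 in R 4.3.3 fitted 16 group means, took the animal as a random block (correlation 0.0964) and moderated variances with a trend. Replicates are separate animals by the animal numbers in the labels, which also pair the legs of 41 animals. Residuals of paired legs had a mean correlation of 0.0634. The threshold was an adjusted p of 0.05 over all tested genes. Alternatives covered the pseudocount, filter, quantile normalization, probe set rule, array weights, block, groups in the fit, single muscles left out and, added after seeing the data, the bright-background arrays and exchanged legs. The mean of probe sets took in every probe set of a gene, also those under the filter, so dim ones can shrink a difference. On simulated data in which 200 of 16029 genes were changed, 94%, 79% and 81% of genes changed by log2 1 were recovered for casting day 2, tenotomy day 2 and tenotomy day 7. Of genes changed by log2 0.5, 58%, 43% and 52% were recovered, so a gene that did not pass may still differ by that much. The files give no scan date or batch.

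The collagens and the lists of modifying genes, fibril partners, receptors and markers (fibroblast, tenocyte, macrophage, endothelial, Schwann cell, cartilage, adipocyte and muscle fibre) were chosen with earlier results of these data known. The genes named are a fixed set of 14 collagens, in each comparison the 2 members of each family with the largest change past the threshold, the 3 such modifying genes, and Serpinh1, Lox and P4ha1. Members outside this rule, among them Col20a1 at day 14 of casting, were named after their values were seen. The sham group at day 2 was taken from sample titles. Promoter windows are from RefSeq (GRCm38.p6). The printed sequences were shortened where they ran past a start of the gene, and motifs were counted in the full 250 bases.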

Additional observations from a re-analysis of the deposited data

Results flagged for a closer look

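A single muscle lay far from the others of its group in 23 of 210 combinations of a collagen and a group of 4 to 10 muscles, where chance gives about 5%. In cast legs these signals were Col1a2 at 9474 (high, day 2), Col3a1 at 2806 (low, day 7), Col3a1 at 9035 (high, day 14), Col5a2 at 412.7 (low, day 7), Col15a1 at 91.76 (low, day 2) and Col14a1 at 211.3 (high, day 2). In casting control legs these signals were Col1a1 at 2165 (low, day 7), Col1a2 at 3541 (low, day 7), Col5a1 at 222.3 (low, day 14), Col4a2 at 687.8 (low, day 14), Col18a1 at 176.8 (high, day 7), Col12a1 at 220.4 (high, day 14) and Col14a1 at 245.1 (high, day 2). In left legs labelled tenotomy these signals were Col1a1 at 837 (low, day 14), Col1a2 at 2312 (low, day 14) and Col3a1 at 1721 (low, day 14). In right legs labelled control these signals were Col3a1 at 9303 (high, day 14), Col5a2 at 2948 (high, day 14), Col15a1 at 303.3 (high, day 2), Col18a1 at 248 (high, day 14) and Col6a1 at 3167 (high, day 14). In sham muscles this signal was Col8a1 at 125.7 (high, day 7). In naive muscles this signal was Col14a1 at 70.41 (low).

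The leg difference of tenotomy mice departed from that of casting mice by the test of the difference itself. At day 2 the tenotomy minus casting values were Col1a1 -1.43, Col1a2 -0.69, Col3a1 -1.15, Col5a1 -1.05, Col5a2 -2.38, Col8a1 -1.96, Col12a1 -1.72, Col14a1 -1.46, Col6a1 -0.64 and Col6a3 -0.78 on the log2 scale. The Col1a2 call was lost in 11 alternative settings, with adjusted p of 0.0501 to 0.199, and that of Col6a1 without 1 right leg (-0.51, adjusted p = 0.0777). At day 7 the tenotomy minus casting values were Col3a1 -1.35, Col5a1 -1.66, Col5a2 -2.43, Col8a1 -1.84, Col12a1 -1.98, Col14a1 -2.09, Col6a1 -1.13 and Col6a3 -1.07 on the log2 scale. At day 14 the tenotomy minus casting values were Col1a1 -1.40, Col1a2 -0.84, Col3a1 -2.15, Col5a1 -2.29, Col5a2 -2.97, Col4a1 -0.95, Col4a2 -0.79, Col15a1 -0.82, Col18a1 -1.19, Col8a1 -2.53, Col12a1 -1.97, Col14a1 -2.55, Col6a1 -1.60 and Col6a3 -2.10 on the log2 scale. Without 1 left leg Col1a1 (-0.99, adjusted p = 0.062) and Col1a2 (-0.56, adjusted p = 0.148) did not pass. The casting difference at day 14 minus that at day 2 was Col3a1 0.90, Col5a1 0.79, Col5a2 0.90, Col4a1 0.63, Col15a1 0.55, Col18a1 0.66, Col14a1 1.07 and Col6a3 0.78. Without the bright-background arrays Col15a1 (0.47, adjusted p = 0.12) and Col18a1 (0.61, adjusted p = 0.0534) did not pass. The legs in each difference are shared with the comparisons of the report.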

How the results depend on the processing

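Exchanging the legs of the tenotomy mice, as the series' description reads, gave 22 collagens past the threshold for tenotomy minus casting at day 2 (13 as labelled) and turned the sign of differences between the models. At day 2 the turned values were Col1a1 1.83, Col1a2 1.03, Col3a1 2.12, Col5a1 1.92, Col5a2 3.12, Col8a1 2.96, Col12a1 1.72, Col14a1 2.45, Col6a1 1.40, Col6a3 2.04, Col22a1 -0.89, Lox 3.71, Loxl1 2.23 and Ppib 1.67. At day 7 the turned values were Col3a1 1.50, Col5a1 2.14, Col5a2 2.92, Col8a1 2.96, Col12a1 2.94, Col14a1 2.78, Col6a1 1.82, Col6a3 1.70, Col8a2 2.17, Col22a1 -0.52, Col23a1 1.06, Lox 3.54, Plod2 2.72, P4ha3 2.29 and Serpinh1 2.05. At day 14 the turned values were Col1a1 1.66, Col1a2 1.02, Col3a1 1.32, Col5a1 1.57, Col5a2 1.91, Col4a1 0.78, Col4a2 0.78, Col15a1 1.32, Col18a1 0.71, Col8a1 1.87, Col12a1 2.32, Col14a1 1.42, Col6a1 1.70, Col6a3 1.81, Col11a1 2.95, Col8a2 2.04, Col6a2 2.04, Col25a1 -0.27, Lox 1.16, Plod2 1.00, Loxl1 1.07 and Serpinh1 1.59. Among the turned values Col22a1 at day 7 (adjusted p = 0.168) did not pass, nor did Col18a1 (adjusted p = 0.0668) and Col25a1 (adjusted p = 0.718) at day 14. Quantile normalization turned Col1a2 in casting control legs against naive to 0.41, and the mean of probe sets turned Mia3 in left legs against sham at day 7 to -0.03. Casting at day 7 (5 collagens) gave 3 with a pseudocount of 1, no filter, the mean of probe sets, no block or a fixed animal block, 12 with array weights and 2 without the bright-background arrays. Casting at day 14 (4) gave 2 with no filter or no block, 1 without those arrays and 8 with only the groups compared, and its change since day 2 (11) gave 7 without those arrays. Left legs against sham gave 2 with a stricter filter or no block and 3 with only the groups compared at day 2 (1), 2 with quantile normalization at day 7 (4), and 9 with array weights and 8 without the bright-background arrays or with only the groups compared at day 14 (5). Sham against naive gave 1 with a stricter filter or array weights at day 7 (0), and 0 with the mean of probe sets at day 14 (1). The change of the tenotomy difference from day 2 to 7 (0) gave 1 with a pseudocount of 16, quantile normalization, the stricter filter, the mean of probe sets, array weights or the fixed block, and that from day 7 to 14 (1) gave 0 with only the groups compared. The cause of these changes was not tested.

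Leaving out single muscles gave 18 to 21 collagens for the tenotomy difference at day 2 and 21 to 26 at day 14, 10 to 14 and 20 to 25 for tenotomy minus casting, 10 to 18 and 25 to 27 for right legs against sham, and 1 to 3 and 3 to 6 for left legs against sham. It gave 0 to 0 for sham against naive at day 2, 0 to 2 for the tenotomy change from day 2 to 7 and 1 to 1 for that from day 7 to 14. Without the animal as a block the leg differences gave 12, 3 and 2 collagens in casting and 20, 21 and 25 in tenotomy at days 2, 7 and 14, and with the animal as a fixed replicate block 11, 3 and 5, and 21, 22 and 23. Of 260 calls of named genes 158 were kept in every setting run. The exchange of the tenotomy legs was one of these settings. It turned the sign of 51 named calls for tenotomy minus casting and left 2 the same. That setting turns the tenotomy leg difference by design, so a call lost in it alone does not speak to the processing. Dim members such as Col6a5 and Col17a1 lie near the array background, which limits what can be detected in them.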
